A study of Triticum aestivum with 8 samples.

Results

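The transcripts described here were read by probes that gave no signal well above background in the dry wheat embryo, a clear signal by 16 h of imbibition, and a similar signal at 24 h. They were chosen from the measured values on all arrays, and 146 of 43603 probes met the rule. The level of a probe is its log2 processed signal minus the 75th percentile of all wheat probes on the same array, so a level of 0 lies at that percentile. A member had to be flagged by the scanner software as not well above background on both dry-seed arrays and as well above it on all 6 imbibed arrays. Its mean level at 16 h had to be at least -1, and its mean at 24 h had to lie less than 1 (2-fold) from that at 16 h. Because these values chose the members, the rises and levels of the members below are descriptions without a test.

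All samples were mature embryos of the bread wheat cultivar Norin61, and no group carried a mutation or transgene. The dry-seed group was not imbibed (2 arrays). The other groups came from grains kept moist in darkness at 25 °C, by the sample titles for 16 h or 24 h (3 arrays each). Grains with a radicle (the first root) shorter than 3 mm at 16 h, and shorter than 7 mm at 24 h, had been removed, so slower grains are not represented. Each array received the RNA of 7 pooled embryos, which averages over the grains of a pool and over the tissues of the embryo, so more RNA per cell and more cells of one kind cannot be told apart.

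The dry cereal embryo stores messenger RNAs made while the grain matured. On imbibition it resumes respiration and translation within hours, degrades part of this store and transcribes genes needed for growth, and the radicle then breaks through the surrounding tissues. The deposited files pair the members with sequence names but with no description or gene symbol. None of the 141 distinct names of the members was found in the wheat RefSeq gene table, so the members are given by probe ID and no function is assigned to them. For the same reason the embryo label could not be set against marker genes of embryo, aleurone or starchy endosperm. No probe sequences were used here.

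The dry-seed arrays were dimmer than the imbibed ones, with an unscaled 75th percentile of 248 and 265 linear units against 1181 to 1739 on the imbibed arrays. The dimmest wheat probe flagged as well above background in dry seed read 7.69 and 8.98 linear units, levels of -5.10 and -4.79 on the respective arrays. On the imbibed arrays this limit was a level of -7.37 to -6.45, so detection reached less far down in dry seed once the arrays were scaled. The background was raised on 16 h replicate 2 and 24 h replicate 3, whose negative-control spots had a 95th percentile of 9.70 and 8.92 linear units against 2.33 to 3.84 on the other arrays. Without the former the rule finds 156 probes, and without the latter 149. In the levels of bright probes another 2 imbibed arrays stood apart from their groups. Among 12428 probes above background on all 8 arrays, with a level of at least -1 and a steady level by the same criterion, 16 h replicate 1 lay farthest from the middle array of its group for 52.1% and 24 h replicate 2 for 53.5%. Without 16 h replicate 1 the rule finds 134 probes, and without 24 h replicate 2 it finds 135.

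The choice narrowed in 3 steps. Of all probes, 16848 were not well above background on either dry-seed array, and 3176 of these were well above it on all 6 imbibed arrays. The level criterion at 16 h kept 254, and the steadiness criterion kept 146. Of those dropped by the last step, 64 were higher at 24 h by 1 or more and 44 were lower by as much. The plot of 24 h against 16 h levels places the members among the other probes of this kind, most of which were dim. The criteria have no natural gap at their edges. The dimmest members at 16 h were A_99_P202636 and A_99_P544937, both with a mean level of -0.99, and the nearest probes outside were A_99_P427202, by less than 0.01 below the limit, and A_99_P295821 (-1.01). On the rising side of the steadiness criterion the outermost members were A_99_P244081 and A_99_P521902, with 24 h minus 16 h differences of 1.00 and 0.98, and the nearest probes outside were A_99_P007446 and A_99_P151487 (both 1.03). On the falling side the outermost members were A_99_P026179 (-0.98) and A_99_P543902 (-0.93), against -1.05 and -1.08 for A_99_P364861 and A_99_P054499 just outside.

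**Figure D1:**
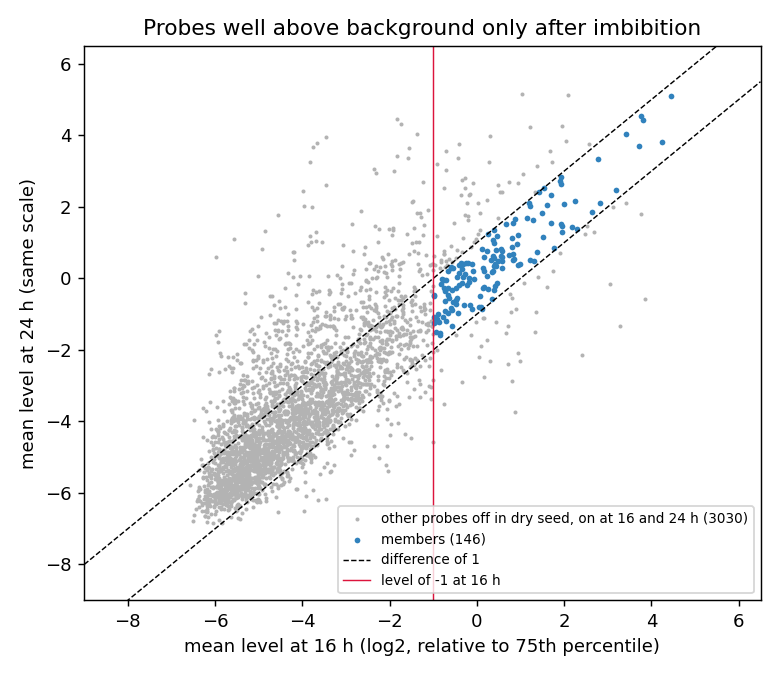
Mean level at 16 h (horizontal) and at 24 h (vertical), both log2 relative to the 75th percentile of the array, of the 3176 probes not well above background in dry seed and well above it on all imbibed arrays. The 146 members (blue) lie right of the level of -1 and between the dashed lines at a difference of 1, and most of the 3030 other probes (grey) lie at lower levels.

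The members went from signals not well above background on the dry-seed arrays to the upper part of the imbibed arrays. Over the members the median level read -6.52 and -6.38 for dry seed, 0.27, 0.20 and 0.27 on the 16 h arrays, and 0.27, 0.24 and 0.35 on the 24 h arrays. In unscaled linear units the median member read 2.88 and 2.97 in dry seed and 1420 to 2090 on the imbibed arrays. The lowest signal of any member on an imbibed array was 313 units and the highest of any member on a dry-seed array was 11.1 units, so no member's dry-seed and imbibed arrays overlapped, as the rule requires. Within a single probe, the dimmest imbibed signal was at least 56.1 times the brighter dry-seed signal before any scaling. The median member ranked 9607 to 10224 among 43603 probes on the imbibed arrays. As a sum, the members took 0.00137% and 0.00165% of the wheat signal on the dry-seed arrays. At 16 h their share was 0.318% ± 0.022 (SD, n = 3), and by 24 h it was 0.328% ± 0.035 (SD, n = 3). The 146 members are 0.335% of all probes, so their share of the imbibed signal was near their share of the probes.

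**Figure D2:**
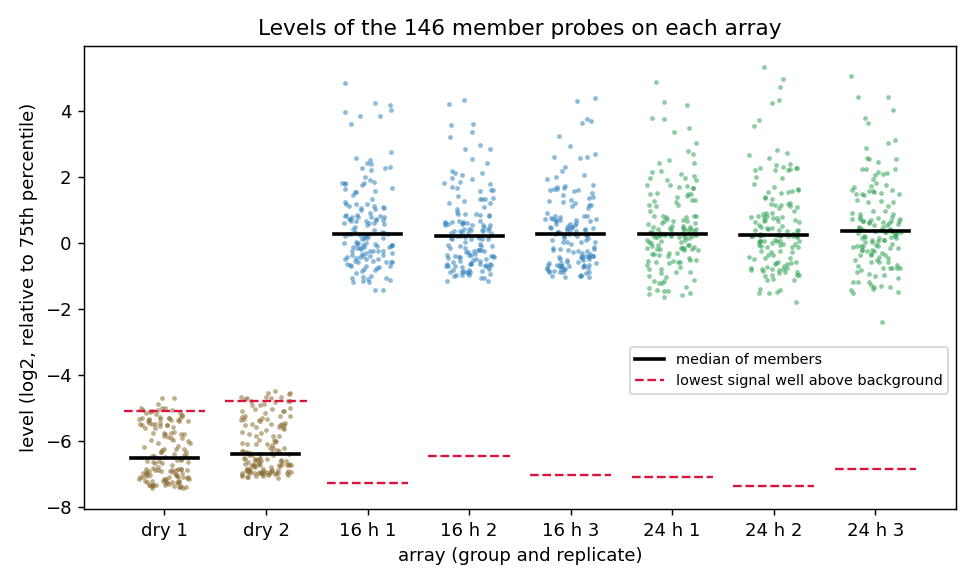
Level of each of the 146 members on each of the 8 arrays (log2 relative to the array's 75th percentile), with the members' median as a black bar and the lowest signal well above background as a dashed red line. The dry-seed medians are -6.52 and -6.38 and the imbibed medians lie between 0.20 and 0.35.

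How silent the members were in the dry embryo differed between them. The flag used by the rule asks for a signal well above background, and the scanner software also sets a weaker flag for a signal that is positive and significantly above background. That weaker flag was set on both dry-seed arrays for 74 of the 146 members, on 1 array for 32 and on neither for 40. The arrays also carry 153 negative-control spots, whose 95th percentile in dry seed was 2.33 and 3.18 linear units. Both dry-seed signals lay at or below that percentile for 54 members (37.0%), against 59.8% of all 16848 probes not well above background in dry seed. Both lay above it for 58 members. The label "switched on" thus holds for the stronger flag, while a faint dry-seed signal above that percentile was read on both arrays for those 58 members. On both dry-seed arrays all 146 members lay at or below the brightest negative-control spot, at 22.0 and 16.7 linear units.

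Rises are given as lower bounds, because a dry-seed signal below the detection limit only caps the level. The bound sets the group mean of the imbibed arrays against, per dry-seed array, the higher of the lowest signal well above background and the probe's own signal. By 16 h the bound over dry seed had a median of 37.0-fold over the members (log2 5.21) and ran from 15.5-fold to 670-fold. By 24 h its median was 39.1-fold (log2 5.29) and it ran from 10.4-fold to 1048-fold. At 16 h the bound was at least 16-fold for 141 members, 32-fold for 85 and 64-fold for 35. At 24 h the same counts were 132, 89 and 40. The probe's own dry-seed signal, and not the detection limit, set the bound for 10 members on the first dry-seed array and 11 on the other. The lower end of these ranges follows from the level criterion and the dry-seed detection limit. Relative to the spike-in controls, RNAs added before labelling, the median bound was larger, at 8.09 (log2) at 16 h and 8.78 at 24 h, because the 75th percentile of the wheat probes itself rose against the spike-ins.

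**Figure D3:**
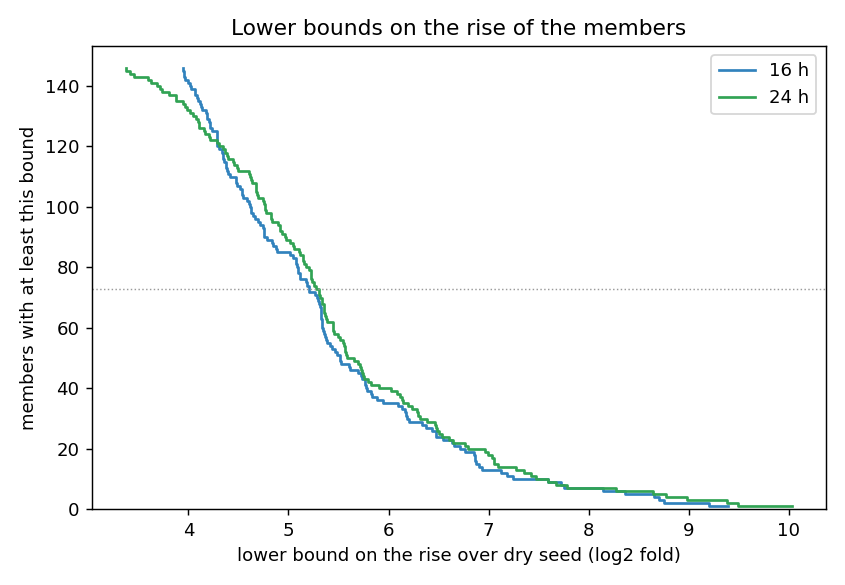
Number of members (vertical) whose lower bound on the rise over dry seed is at least the value on the horizontal axis (log2 fold), for 16 h (blue) and 24 h (green). The dotted line marks 73 of 146 members, which the curves cross near their medians of 5.21 and 5.29.

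In the limma fit over 30833 tested probes, all 146 members were called higher at 16 h than in dry seed (adjusted p below 0.05 and at least 2-fold), where 25.7% of the tested probes were called higher. At 24 h all 146 were again called higher, against 29.3% of the tested probes. Every member passed the filter of that fit through its imbibed arrays and had to differ from dry seed, so nothing is read from these counts.

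The member with the strongest signal was A_99_P281851. On the dry-seed arrays its level was -7.35 and -7.05. At 16 h it was 4.84, 4.20 and 4.29, and by 24 h it was 4.88, 5.32 and 5.06. In unscaled units it went from 1.62 and 1.87 to between 23104 and 69649, and its bound was at least 670-fold at 16 h and at least 1048-fold at 24 h. 3 further members of the upper end had a similar course. A_99_P281846 read -6.86 and -6.56, then 4.23, 3.57 and 3.63, then 4.16, 4.72 and 4.41 on the arrays in the same order, with a bound of at least 432-fold at 16 h. A_99_P547167 read -6.91 and -6.61, then 3.84, 3.20 and 3.23, then 3.77, 4.32 and 4.01, with a bound of at least 330-fold. A_99_P193628 read -7.13 and -6.92, then 4.18, 3.35 and 3.74, then 4.27, 4.96 and 4.40, with a bound of at least 417-fold. In all 4 the highest 16 h value was on replicate 1 and the highest 24 h value on replicate 2, and the 16 h and 24 h arrays overlapped in A_99_P281846 and A_99_P547167 but not in A_99_P281851 and A_99_P193628. The sequence names of A_99_P281851 and A_99_P281846, TA76414_4565 and TA76413_4565, are consecutive, and whether these probes read separate transcripts was not tested.

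A second set at the upper end did not lean upwards after 16 h. A_99_P250841 read -6.88 and -5.24 on the dry arrays, 4.03, 4.33 and 4.39 at 16 h, and 3.47, 4.23 and 3.78 at 24 h, a rise of at least 587-fold by 16 h and of at least 437-fold by 24 h. A_99_P242556 was the steadiest of the 8, with levels of 3.84, 3.61 and 3.68 and then 3.75, 3.73 and 3.62 in the imbibed groups, after -5.62 and -5.00 when dry, and its 16 h bound was at least 403-fold. A_99_P188177 read -6.55 and -5.85, then 3.95, 2.96 and 2.68, then 2.52, 2.35 and 2.57, with a bound of at least 282-fold at 16 h and at least 172-fold at 24 h. A_99_P086245 read -5.34 and -5.64, then 3.61, 2.54 and 2.28, then 2.14, 1.97 and 2.23, with a bound of at least 216-fold at 16 h. In the last pair of probes every 24 h value lay below every 16 h value, and 16 h replicate 1 stood about 1 log2 unit above the other 16 h arrays. The same 8 probes had both the highest 16 h levels and the largest 16 h bounds.

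**Figure D4:**
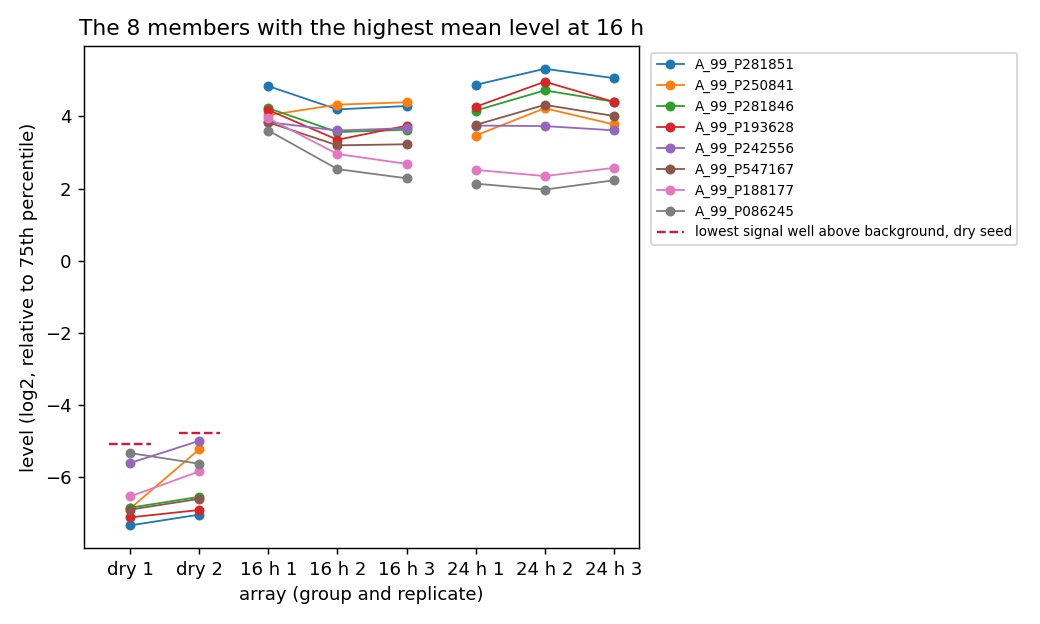
Level (log2 relative to the array's 75th percentile) on each array of the 8 members with the highest mean at 16 h, with lines joining the arrays of a group and the dry-seed detection limit in dashed red. All 8 lie below the limit in dry seed and at 1.97 or above on every imbibed array.

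Relative to the 75th percentile, the members were split between small positive and small negative differences from 16 to 24 h. The mean was higher at 24 h for 80 members and lower for 66, with a median difference of 0.07 (log2) and quartiles of -0.33 and 0.54. The split depends on the scaling. With the spike-in scaling 126 members were higher and 20 lower, with a median difference of 0.68 against 0.60 over all tested probes. In that scaling 48 of the 146 members were called, all of them higher. Of the 30833 tested probes 9718 were called in it, in either direction. With median scaling 68 were higher and 78 lower, with medians of -0.05 and -0.13. The difference was below 0.5 in size for 76 members, and for 58 it was smaller than the larger of the 2 group SDs. All 24 h arrays lay above all 16 h arrays for 32 members (21.9%), against 31.3% of the tested probes. All lay below for 33 members (22.6%), against 31.6%. The 16 h and 24 h arrays of the other 81 members overlapped. In the percentile-scaled values no member was called at an adjusted p below 0.05 and at least 2-fold in limma, against 18.4% of the tested probes, because the rule admits only smaller differences. At an unadjusted limma p below 0.05 and no fold minimum there were 58 members (39.7%), against 58.7% of the tested probes. With the adjusted p below 0.05 and no fold minimum, 25 members (17.1%) were higher at 24 h, against 26.6% of the tested probes. In that count 18 members (12.3%) were lower, against 25.4%. Since the rule caps this difference, these counts describe the members and show nothing further about them.

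At the upper edge of the difference, A_99_P244081 read -7.10 and -5.59 on the dry-seed arrays, 1.57, 1.42 and 1.60 at 16 h, and 2.40, 2.66 and 2.53 at 24 h. A_99_P521902 read -5.75 and -6.52, then 1.81, 1.31 and 1.15, then 2.41, 2.28 and 2.54. A_99_P004081 read -6.34 and -6.23, then 0.72, -0.09 and 0.15, then 1.29, 1.14 and 1.31. In these 3 every 24 h array lay above every 16 h array. At the lower edge, A_99_P026179 read -6.16 and -6.30, then -0.25, 0.30 and 0.34, then -0.51, -1.52 and -0.52. A_99_P543902 read -7.25 and -6.89, then 1.91, 2.40 and 2.58, then 1.23, 1.64 and 1.24. A_99_P062578 read -6.01 and -6.12, then 0.22, 0.39 and 0.43, then -0.45, -0.86 and -0.44. In these 3 every 24 h array lay below every 16 h array, and all 24 h values still lay far above the dry-seed ones.

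Replicates of an imbibed group differed by little for most members, but in the median by more than in other bright and steady probes. The SD between arrays had a median of 0.23 at 16 h and 0.19 at 24 h (log2, n = 3 arrays), and it was 0.13 and 0.11 in the 12428 steady probes above background on all 8 arrays. An SD above 0.5, a value set after seeing the data, occurred in 14 members at 16 h, and in all 14 replicate 1 was the array apart, above the others in 12 and below them in 2. At 24 h it occurred in 16 members, and in all 16 replicate 2 was the array apart, above the others in 5 and below them in 11. These arrays were also the ones apart in most of the 12428 probes with such an SD, in 90.2% of 133 at 16 h and 88.3% of 137 at 24 h. The pattern is therefore one of the arrays as well as of the members, and what set the pools apart was not tested. As an example chosen for its spread, A_99_P006006 read -6.46 and -6.11 on the dry-seed arrays, 1.12, -0.37 and -0.24 at 16 h, and 0.60, 0.88 and 0.34 at 24 h. A_99_P293486, chosen in the same way, read -7.27 and -6.98, then 1.16, 1.21 and 0.45, then 1.66, 0.22 and 1.73. The array apart lay above the other 16 h arrays in the former and below the other 24 h arrays in the latter.

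The arrays lay on 2 slides, each with all 3 groups, so the rule could be applied to 1 slide and read on the other. Of the 8 arrays, slide 1 held the first of each group together with 16 h replicate 2, and slide 2 held the rest. On slide 1 159 probes met the rule, and all 159 were well above background on every imbibed array of slide 2, as were 67.3% of all probes. There 149 of them (93.7%) were not well above background in dry seed, against 41.9% of all probes. A 16 h level of at least -1 was kept by 146 (91.8%), against 33.4%. Steadiness was met by 129 (81.1%), close to the 78.0% of all probes. On slide 2 116 (73.0%) met every criterion, against 0.427% of all probes on slide 2. In the other direction 186 probes met the rule on slide 2, and 116 (62.4%) met it on slide 1, against 0.365% of all probes there. These are the same 116 probes, those that met the rule on both slides, so this count is not a separate result. The criterion lost most often on slide 1 was the dry-seed one, which 139 of the 186 met (74.7%, against 40.0% of all probes). Steadiness was met there by 171 (91.9%), against 80.8% of all probes. With the members held fixed, the median bound at 16 h was 5.39 (log2) on slide 1 and 5.05 on slide 2, and at 24 h 5.35 and 5.09.

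Some sequence names were read by more than 1 probe. 5 names carried 2 member probes each, and no name carried more. TA88472_4565 was read by A_99_P323081, at -7.43 and -7.12 on the dry-seed arrays, -0.07, -0.41 and -0.58 at 16 h, then 0.68, -0.26 and 0.87 at 24 h. Its other probe, A_99_P556462, read -6.89 and -6.76, then -0.05, -0.43 and -0.47, then 0.67, -0.10 and 0.66. Both probes were low on 24 h replicate 2, which reached into the 16 h values, while the other 24 h arrays lay above all of them. TA96262_4565 was read by A_99_P521902, given above, and by A_99_P348506, at -5.16 and -5.03, then 2.26, 1.83 and 1.70, then 2.77, 2.70 and 3.03. In this name each probe was higher on all 24 h arrays than on all 16 h arrays. Both probes of each pair were chosen by the rule, which caps the difference between 24 h and 16 h, so their likeness in it is not independent. That difference differed within the 5 pairs by 0.06 to 0.25. The bounds at 16 h differed within pairs by 0.04 to 3.52 (log2), most in CA645125, where A_99_P193628 rose at least 417-fold and A_99_P450112 at least 36.3-fold.

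A further 19 names each carried 1 other probe that was not a member. These probes were picked by name and not by their own rise, but each had by definition missed the members' rule. Their names were taken because a member probe rose on the same arrays. The counts and p-values below are therefore not independent of the choice of members. Of the 19, 11 were well above background on at least 1 dry-seed array, so for those names a transcript was read in the dry embryo by the other probe. In limma 10 of these 11 were called higher at 16 h (adjusted p below 0.05 and at least 2-fold), against 21.3% of the tested probes with such a dry-seed signal. Their log2 fold changes ran from 2.65 to 5.64, with limma adjusted p from 2.06e-07 to 0.00771. In 3 of the 11 only 1 of the 2 dry-seed arrays gave such a signal, among them A_99_P310211 with the smallest of these changes. As a bound the rise of A_99_P310211 was at least 1.56 (log2), against the fitted 2.65. For A_99_P487287 the bound was 3.90 against 4.95, and for A_99_P293411 both were 5.15. Another 7 had the same flags as the members. All 7 were called higher too, but they entered the fit through their imbibed arrays, so nothing is read from that count, and their rises are bounds of at least 0.47 to 3.86 (log2). A_99_P174989, of the name AB262584, stood at 0.24 and -0.15 on the dry-seed arrays and rose to 5.77, 5.92 and 5.38 at 16 h (log2 fold change 5.64, limma adjusted p = 3.80e-06). The member probe of that name, A_99_P358266, read -5.22 and -6.70 in dry seed and 0.82, 0.92 and 0.70 at 16 h. A_99_P195443, of the name AB334130, stood at 0.58 and 0.33 in dry seed and rose to 5.59, 5.38 and 5.58 at 16 h (log2 fold change 5.06, limma adjusted p = 2.30e-07).

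In 1 name the probes went apart. A_99_P165092 shares the name DR738075 with A_99_P250841, the member with the second largest bound, yet it stood at -0.69 and -0.89 on the dry-seed arrays. Its 16 h levels were -1.65, -1.82 and -1.26. It was lower at 16 h on every array (log2 fold change -0.78, limma adjusted p = 0.00481), which is less than 2-fold and so was not called. Which of these probes follows the named sequence was not tested. The 19th probe, A_99_P062698 of the name CK158895, stayed below the well-above-background flag on all 8 arrays. Names were singled out here after their values were seen.

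**Figure D5:**
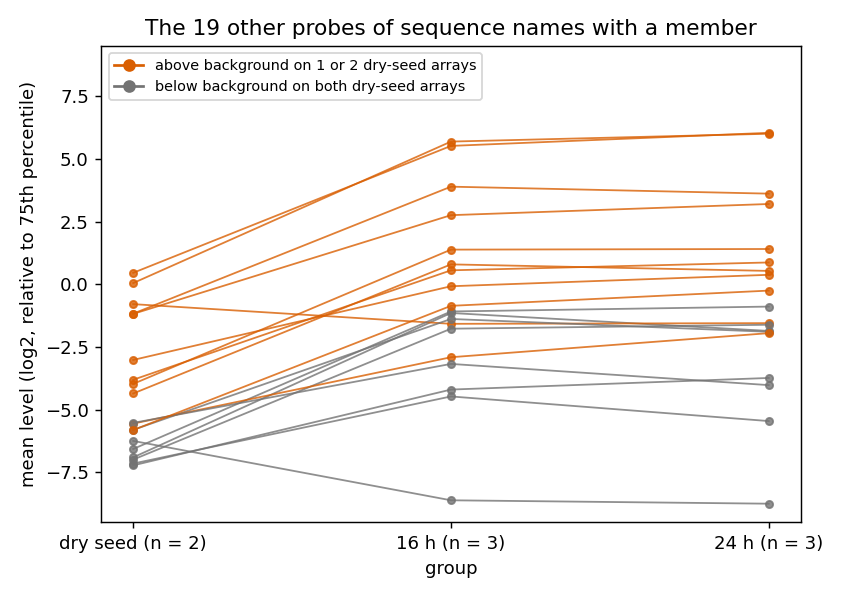
Mean level (log2 relative to the array's 75th percentile) for dry seed (2 arrays), 16 h and 24 h (3 arrays each) of the 19 non-member probes that share a sequence name with a member. Orange lines mark the 11 probes well above background on 1 or 2 dry-seed arrays, and 10 of these 11 rise from dry seed to 16 h.

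Set beside the probes most like them, the members lay between those that kept rising and those that fell back. The 64 probes that met the other criteria but were higher at 24 h by 1 or more had a median level of -0.22 at 16 h and 2.14 at 24 h, and a median bound of at least 26.5-fold and then 136-fold. The 44 that were lower by 1 or more had medians of 0.80 and -1.27, and bounds of 53.8-fold and then 12.8-fold. The members had medians of 0.26 and 0.36. Their 16 h levels ran from -0.99 to 4.44, with 60 members below 0, 35 at 1 or above and 13 at 2 or above. At 24 h they ran from -1.57 to 5.09, with 40 at 1 or above and 20 at 2 or above. A set of 216 probes above background on all 8 arrays met the same level and steadiness criteria and had a rise of at least 4 (log2). This set was brighter than the members, with median levels of 2.31 at 16 h and 2.08 at 24 h. Its measured median rise by 16 h was 24.4-fold, which depends on the minimum set for it. Its median dry-seed signal was 42.2 linear units against 2.95 for the members. By kind of sequence name, 43.8% of the members carried a TA assembly name, against 40.4% of all probes. These sets were all defined by the values compared, so no test of their differences was made.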

How the data were processed

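Each of the 8 arrays measured 1 pool of 7 embryos, with 200 ng of total RNA labelled with Cy3. Per the file headers, the deposited intensity values are background-subtracted, detrended signals of 1 array each from version 10.7.3.1 of Agilent's Feature Extraction, with no scaling between arrays. The log2 values of the deposited series table are centred per probe, with scale, centring and direction resolved against the scanner files, and its columns for 24 h replicates 2 and 3 each matched the other array. Its column medians were 0.47 and 0.51 in dry seed and -0.07 to 0.00 in the imbibed groups, and it was used for 1 alternative only. Groups follow the sample titles and source names, which give 16 h and 24 h. The description fields of these samples give 8 and 16 h instead, and this conflict was not resolved. Only 2 dry-seed pools were analysed here.

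The log2 processed signal was averaged over the spots of a probe and scaled by the 75th percentile over probes. A probe needed 50% of its spots or more flagged to count as well above background, and no member had more than 1 spot. limma 3.58.1 in R 4.3.3 was fitted to all 8 arrays with 1 mean per group, without outlier spots, on the 30833 probes that 1 group or more showed well above background throughout, with Benjamini-Hochberg adjustment over all of them. It was tested on simulated data. Nothing says that pools were grown separately, so its p-values measure only the spread between these pools. 8 spike-in probes gave the spike-in scaling. The number of arrays limits the precision.

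The members and lists were chosen with earlier results of these data known. Named are the 8 members with the highest mean and the 8 with the largest bound at 16 h, the 3 with the largest and the 3 with the smallest difference between 24 h and 16 h, the 2 probes nearest each side of a threshold and any sequence name with 3 or more member probes. Exceptions are stated. Gene lists by function could not be applied, because 0 of 40253 sequence names matched the RefSeq table of the assembly IWGSC CS RefSeq v2.1. Alternatives were other scalings, normexp background correction, other thresholds, other fits and leaving out each array.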

Additional observations from a re-analysis of the deposited data

How the results depend on the processing

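All members stayed called higher at 16 h under every alternative fit, and at 24 h under every fit except normexp background correction, which called 141. Of 30833 tested probes, 4016 were called higher at 16 h with normexp and 26761 with spike-in scaling. At 24 h these counts were 4751 and 27992. The rule chose the members by their rise over dry seed, so nothing is read from their counts. Of the 146 members 140 were found again with quantile scaling (140 probes), 143 with normexp (163), 141 with median scaling (152) and 98 with spike-in scaling (158). Taking the percentile over spots, chosen after seeing the data, gave 148. Scaling to the 75th percentile of the probes above background on all arrays found 55. Its zero point lies 1.39 to 1.62 (log2) higher, which makes the level criterion stricter. The count was 40 when the weaker dry-seed flag had to be absent, 86 and 264 with a level of at least 0 or -2, and 76 and 185 with a steadiness limit of 0.5 or 1.5. Leaving out single arrays gave 134 to 197 probes, the most without dry seed replicate 1. The median bound at 16 h (5.21, log2) was 5.37 with the percentile of always-detected probes, 5.08 with median, 5.24 with quantile and 8.09 with spike-in scaling, 5.39 on slide 1 and 5.05 on slide 2, and 5.05 to 5.35 without single arrays. At 24 h (5.29) it was 5.50, 5.04, 5.33 and 8.78 in that order, 5.35 and 5.09 on the slides, and 5.14 to 5.45 without single arrays. The number of members called between 16 and 24 h was 0 by construction, where 5682 of 30833 tested probes were called. With spike-in scaling it became 48, where 9718 probes were called. It became 5 with the slide as a term (5922 probes), 3 with quantile scaling (5653) and 4 with the percentile of always-detected probes (5711). With normexp it was 1 (3512), and without a fold minimum 43 (16021). Leaving out single arrays gave 0 to 14 members, 14 without 16 h replicate 1 (6776 probes) and 12 without 24 h replicate 2 (6185). Members with a higher mean at 24 h, 80 as reported, were 126 with spike-in scaling and 68 to 83 with the other scalings and normexp, a comparison chosen after seeing the data. The causes of these moves were not tested. Where 1 dry-seed array was left, it was assumed to vary like the other groups. Of 72 bounds at 16 h recomputed for the 8 named upper members under other scalings or without a dry-seed or 16 h array, 58 moved by less than the SD between 16 h arrays, 14 moved by more, and the lowest was 7.36. With the replicate block (the replicate number as a term), 146, 146 and 0 members were called, as without it. Correlations of same-numbered deviations from the group means lay between -0.04 and 0.12, and those of other arrays between -0.16 and 0.13. Deviations from means of so few arrays are tied to each other. These values therefore do not decide whether the numbers pair the arrays. Signal over background limits the dry-seed side, so the rises have no upper limit here.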
